A study of Mus musculus with 33 samples.

Results

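The cells described here carried transcripts of both Cacnb2, the gene of an auxiliary subunit of voltage-gated calcium channels, and Gria3, the gene of an AMPA-type glutamate receptor subunit, in 1 pooled single-cell library of mouse bone. A cell was taken when its barcode had at least 10 counts of 1 hashtag and at least 3 times the counts of the next, at least 500 gene UMIs (counted molecules), at least 200 genes, no more than 15% mitochondrial UMIs, and at least 1 UMI of Cacnb2 and of Gria3. Of 26666 barcodes, 22685 were assigned to a hashtag and 22362 passed the cell filter. Of these, 1278 cells (5.72%) carried both genes. They are called Cacnb2 Gria3 cells below. Since the cells were chosen by their measured UMIs of both genes, their differences from other cells are given as descriptions and were not tested.

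Cacnb2 and Gria3 are best known from excitable cells, where the first helps place and gate calcium channels and the second forms part of a fast glutamate receptor. Rad51b, the third gene used to mark these cells, encodes a protein that acts in the repair of DNA breaks by homologous recombination. All 3 genes have long introns, so that most of their primary transcript is removed before the message leaves the nucleus. In bone marrow, the granule proteins Mpo, Elane and Prtn3 are made early in granulocyte development, at the promyelocyte stage, and their transcripts decline as the cells mature to neutrophils.

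The study labelled the niche of metastases with SAMENT, in which tumour cells tag nearby host cells with biotin so that tagged and untagged cells can be sorted apart. In the pooled library, bone from 6 injections by the route labelled IIA was divided by a biotin sort into tagged (positive) and untagged (negative) cells, and the resulting 12 hashtag samples were sequenced together by a 5' method. The other 32 libraries were made by a 3' method after intracardiac injection, with 4 biotin positive and 4 biotin negative samples each of bone, brain, liver and lung. Every group thus carried the tumour injection and the tagging reaction, and no untreated animals are among these samples. The labels give neither the strain, age and sex of the animals nor whether the 6 injections were 6 animals, so p-values measure the spread between hashtag samples. Kept cells per hashtag sample ranged from 249 to 2140 among the positive samples and from 2322 to 3480 among the negative ones, and summed UMIs per sample from 2149784 to 27903856. Of the 1278 cells, 726 (56.8%) came from positive 5 alone. Of the kept barcodes, 33 also occurred in an intracardiac library, and 0 of these were Cacnb2 Gria3 cells.

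On the GRCm38 assembly (GENCODE M21), Cacnb2 spans 384.8 kb at chr2:14603088-14987908, Gria3 spans 277.7 kb at chrX:41400854-41678601 and Rad51b spans 517.4 kb at chr12:79297282-79814690, each on the plus strand. In the chosen cells the median was 2 UMIs of Cacnb2, with a 10th to 90th percentile of 1 to 7 and a highest value of 95. The median of Gria3 was 3 UMIs, with percentiles of 1 to 12 and a highest value of 101. Rad51b, which the rule did not use, was seen in 1012 of the 1278 cells (79.2%), with a median of 3 UMIs. Cells just inside the rule, with exactly 1 UMI of each gene, numbered 112, had a median of 9940 UMIs in all, and 57.1% of them were biotin positive. Just outside it lay 372 cells with 1 UMI of Cacnb2 and none of Gria3 (median 7148 UMIs, 34.9% positive) and 650 with the reverse (median 5873 UMIs, 29.2% positive). The 695 cells with at least 2 UMIs of each gene were 87.6% positive.

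Depth went with membership. The chosen cells had a median of 15400 UMIs and 4209 genes, against 3120 UMIs and 1175 genes in the other kept cells, and a cell with more UMIs has more chances to show both genes. Median mitochondrial UMIs were 3.21% against 0.745%, and ribosomal protein UMIs 18.8% against 5.40%. In the neutrophil-like clusters, taken as cells that should lack both genes, 1.13% of cells had a UMI of Cacnb2, 1.29% of Gria3 and 4.41% of Rad51b at a median of 2941 UMIs, and 1 of 11718 cells had both of the rule genes. These shares are a background at the depth of the neutrophil-like cells and not at that of the chosen cells.

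Most Cacnb2 Gria3 cells carried the transcripts of early granulocyte precursors. Levels in this and the next paragraph are means over cells of UMIs per 10000. Mpo, the myeloperoxidase of primary granules, stood at 85.5 against 7.75 in all other kept cells. Elane, neutrophil elastase, stood at 76.1 against 11.3, Prtn3, proteinase 3, at 69.0 against 9.48, and Ctsg, cathepsin G, at 19.9 against 2.86. Ms4a3, a membrane protein of granulocyte and monocyte precursors, stood at 9.32 against 1.58, and Prss57, another serine protease of these granules, at 3.12 against 0.433. Each of these was higher in the chosen cells of all 12 hashtag samples. When every cell was thinned to 2000 UMIs, Mpo was seen in 92.2% of the chosen cells and 35.4% of the others. A class set after these values were seen, cells with at least 5 UMIs of Mpo and at least 5 of Elane, is called Mpo Elane cells below. It held 2556 kept cells, among them 1105 of the 1278 Cacnb2 Gria3 cells (86.5%), against 6.88% of the other kept cells and 131 of 11718 neutrophil-like cells (1.12%). A limit of 5 UMIs is reached more easily in deep cells, and the chosen cells were the deepest of these, with the medians of 15400, 3120 and 2941 UMIs given above.

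The other leading genes included regulators of growth and genes with long introns. Cdk6, a G1 cyclin-dependent kinase active in blood progenitors, stood at 12.4 against 1.45, and the stem cell factor receptor Kit at 1.77 against 0.219. Calr, a chaperone of the endoplasmic reticulum, stood at 12.4 against 2.17. Pde4d, a cyclic AMP phosphodiesterase, stood at 20.1 against 2.66, and Nrg2, a neuregulin, at 2.50 against 0.208. Kcnq1ot1, a long noncoding RNA that stays in the nucleus, stood at 3.41 against 0.412. Rad51b stood at 3.46 in the chosen cells, 1.42 in the other Mpo Elane cells and 0.375 in all cells outside the rule. These genes, too, were higher in the chosen cells of 12 of 12 samples. Of the 24 leading genes other than Rad51b, 11 spanned at least 100 kb, with a median span of 87.5 kb against 32.4 kb over the 4387 genes compared.

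Gene lists of early stages were higher and that of neutrophils was lower, again as summed means over cells per 10000 UMIs. The 8 granulocyte precursor genes summed to 267 in the chosen cells and 36.2 in the others, with 7 of 8 higher. The exception was Cebpe, a factor of later granulocyte maturation, at 0.922 against 1.28. The 12 neutrophil genes summed to 143 against 2279. All 10 stem or progenitor genes were higher (6.27 against 1.17), as were 20 of 20 S phase genes (18.3 against 7.57), 20 of 20 genes of G2 and M phase (24.2 against 10.2) and 14 of 14 MYC and nucleolar genes (26.2 against 8.87). Most genes were higher in the chosen cells, so such counts are not particular to these lists. Genes at 0.5 per 10000 or more had median log2 ratios of 0.427 to 0.876 by class of gene span. The list medians were 1.56 (stem or progenitor), 1.08 (S phase), 1.19 (G2 and M phase) and 1.41 (MYC and nucleolar). Against the other Mpo Elane cells the order was not the same for all lists: S phase genes were at 18.3 against 20.1 and genes of G2 and M phase at 24.2 against 24.1, whereas stem or progenitor genes were at 6.27 against 2.31 and neutrophil genes at 143 against 675. Against all other kept cells, stress and immediate early genes summed to 25.9 against 33.4, and genes of the p53 response to 2.57 against 4.32.

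Other genes of the families of Cacnb2 and Gria3 were at low levels. Among voltage-gated calcium channel genes, the pore subunits Cacna1e (0.204 against 0.351) and Cacna1d (0.0616 against 0.241) were lower in the chosen cells, and Cacna1a (0.0606 against 0.0256, higher in 9 of 12 samples) and Cacna1c (0.0541 against 0.0277, higher in 7 of 12) were higher. Among other ionotropic glutamate receptors, Grik3 stood at 0.433 against 0.676, and Gria1 had no UMI in the chosen cells. The partners of Rad51b in homologous recombination were higher at low levels, with Brca1 at 0.639 against 0.144 and Bard1 at 0.449 against 0.139. Markers of other cell types were mixed. Plasmacytoid dendritic cell genes summed to 6.55 against 2.58, with Siglech at 0.713 against 0.268 and Bst2 at 1.99 against 0.959, and the chosen cells that lay in the cluster of that type are described below. The monocyte list was at 19.2 against 16.7 through Ly6c2 (15.7 against 10.3), while Ccr2 (0.224 against 0.955, higher in 0 of 12 samples) and Fn1 (0.320 against 1.76) were lower. Lists of natural killer cells (7.53 against 2.24, with 1 of 6 genes seen in at least 1% of the chosen cells), stromal cells or osteoblasts (3.89 against 1.44, 2 of 12 genes) and endothelial cells (0.869 against 0.591, 4 of 8 genes) were higher as well. The basophil or mast cell list summed lower, at 5.92 against 8.05, but 6 of its 9 genes were higher (median log2 ratio 0.388). Lists of several other types summed lower too. Macrophage genes summed to 2.37 against 6.91, B cell genes to 0.411 against 9.05, T cell genes to 0.171 against 1.57 and erythroid genes to 0.923 against 4.62. Of 14 epithelial or carcinoma genes, summing to 1.43 against 0.344, most of the UMIs were of Esr1, the estrogen receptor, at 1.32 against 0.222, while Epcam, an epithelial surface protein, was at 0.0035 against 0.0143. The 10 pan-leukocyte genes summed to 31.3 against 97.5, and all 10 were seen in at least 20% of the chosen cells.

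Clustering of all kept cells without Cacnb2 and Gria3 gave 22 clusters, and the chosen cells fell mainly in 6 of them. Cluster 7, granulocyte precursor-like and led by Elane, Prtn3 and Mpo, held 620 of the chosen cells (48.5%), which were 41.6% of its 1491 cells. Cluster 12, granulocyte precursor-like but led by the heat shock genes Hspa1b and Hspa1a, held 135 among its 256 cells. Cluster 11, left unnamed, was led by the long genes St7, Rad51b and Glis3 with Kcnq1ot1, and 281 of its 410 cells (68.5%) carried both rule genes. The other 3 were cluster 10 (72 of 658 cells, led by Mcpt8, Gata2 and Cpa3), cluster 8 (70 of 233 cells, led by Srm and C1qbp, which act in polyamine synthesis and the mitochondrial matrix) and cluster 18 (68 of 454 cells, plasmacytoid dendritic cell-like, led by Siglech and Cox6a2). Since the clusters were drawn from the 2000 most variable genes of these cells other than Cacnb2 and Gria3, the leading genes describe the clusters and are no test.

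**Figure D1:**
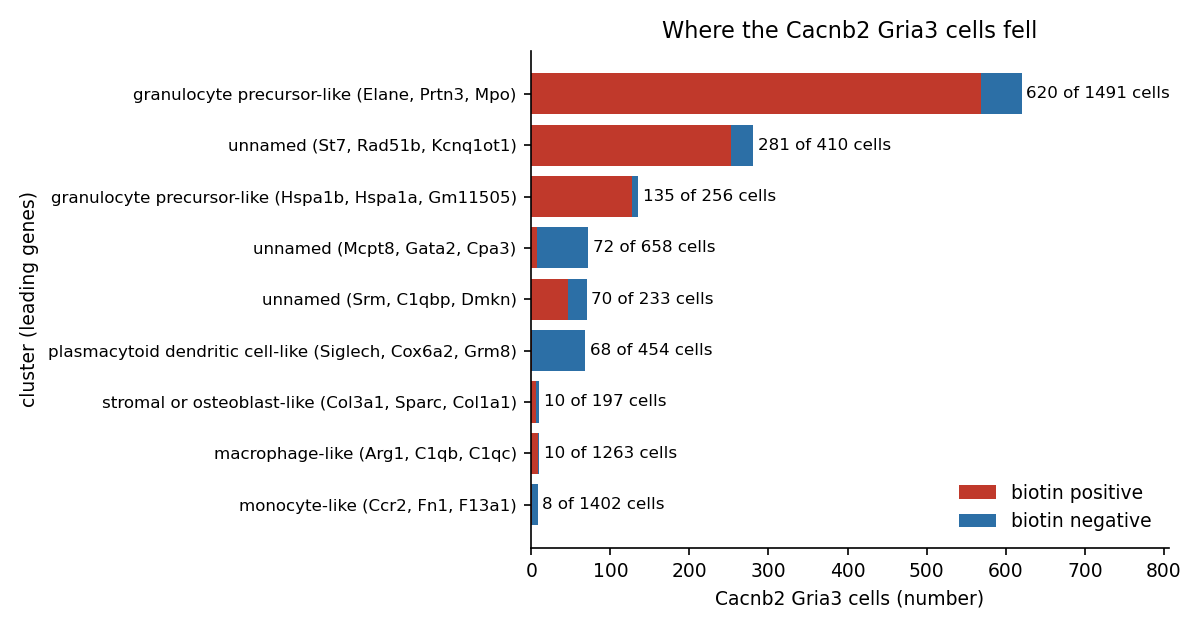
Bars give the number of Cacnb2 Gria3 cells in each cluster that held at least 5 of them, with biotin positive cells in red and biotin negative cells in blue, and the text at each bar gives the cells of the whole cluster. Cluster 7, led by Elane, Prtn3 and Mpo, held 620, and the plasmacytoid dendritic cell-like cluster held 68, of which 67 were biotin negative.

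The sources of the chosen cells differed between the sorts. Of the 1021 positive cells, 68.2% lay in the granulocyte precursor-like clusters 7 and 12, 24.8% in cluster 11 and 6.95% in clusters outside these and the plasmacytoid dendritic cell-like one. Of the 257 negative cells, 23.0% lay in clusters 7 and 12, 10.9% in cluster 11, 26.1% in the plasmacytoid dendritic cell-like cluster and 40.1% elsewhere. These pooled shares weigh positive 5 most. By sample, clusters 7 and 12 held 36.1 to 72.3% of the positive and 10 to 33.3% of the negative chosen cells, without overlap, whereas cluster 11 (8.33 to 38.9% and 2.78 to 16.7%) and the clusters elsewhere (5.23 to 41.7% and 25 to 46.7%) overlapped. Mpo Elane cells were 77.8 to 98.5% of the chosen cells in the positive samples and 21.2 to 57.3% in the negative ones, with means of 93.3% ± 8.0 and 40.2% ± 13.4 (SD, n = 6 each; exact permutation p = 0.00216, adjusted p = 0.00433 over 8 measures chosen after the data were seen). In that dendritic cell-like cluster Gria3 was seen in 61.5% of cells and Cacnb2 in 23.3%, and its 68 chosen cells had a Gria3 level of 7.72 per 10000 UMIs. Cacnb2 was also common in the stromal or osteoblast-like cluster (49.7% of 197 cells), which held 10 chosen cells. Scrublet, a doublet caller, marked 0 cells in the whole library and so did not work as a caller here. By its scores, 57 of the chosen cells (4.46%) were among the highest 5% of all cells.

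Long-gene transcripts set a fraction of the chosen cells apart, not all of them. Over the 2802 genes of at least 100 kb other than the 3 markers, the median share of a cell's UMIs was 9.73% in the chosen cells, 8.17% in the other Mpo Elane cells and 8.67% in all cells outside the rule. The upper end differed more, since the 90th percentile in the chosen cells was 31.8%. With a division at 20%, 271 of 1278 chosen cells (21.2%) had a high long-gene share, against 6.34% of the other Mpo Elane cells and 2.67% of the cells outside the rule. The chosen cells formed a main peak, with 360 cells at 8 to 10%, and a second, broad one, with 33 cells at 30 to 32%. Between these, 12 cells lay at 18 to 20%, and 124 within 5 percentage points of the division. The name long-gene cells therefore holds for about 1 in 5 of the cells that the rule takes.

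The cells above the division had another transcript make-up. Their median was 7866 UMIs against 18654 in the chosen cells below it, with 5.74% against 2.92% mitochondrial UMIs and 2.65% against 20.4% ribosomal protein UMIs. The division itself sets a higher share of long genes and a lower one of short genes, so the profile by span is a description of how far the groups lie apart. Genes under 10 kb gave 21.3% of their UMIs, against 53.8% in the chosen cells below the division and 57.3% in cells outside the rule. Genes of 100 to 300 kb gave 23.1% against 6.76% and 7.06%, and genes of at least 300 kb gave 8.69% against 2.28% and 2.04%. Below the division, the length profile thus lay close to that of the other cells.

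Single genes are given as means over cells of UMIs per 10000. Mpp7, a scaffold protein of cell junctions, was at 24.6 above the division and 1.79 below it, Glis3, a zinc finger factor, at 7.65 and 0.810, and Sipa1l1 at 14.2 and 1.58. Thbs1, the matrix protein thrombospondin 1, was at 6.67 and 0.786 although it spans only 15.3 kb. The short messages of ribosomal proteins were low, with Rps12 at 6.85 above and 74.1 below, and so was Atp5e, a subunit of the ATP synthase, at 1.11 and 14.4. Malat1 was at 59.5 above the division and 23.8 below it. Granule genes split: Mpo was at 132 above and 72.9 below, whereas Elane was at 45.5 and 84.4 and Prtn3 at 40.0 and 76.8. Rad51b, which neither the rule nor the division used, was at 10.4 above the division and 1.60 below it. By cluster, it was at 10.2 in the chosen cells of cluster 11 (median 8053 UMIs). In those of clusters 7 and 12 it was at 1.61 (median 20190 UMIs). The clustering had not left out Rad51b, so the contrast between clusters is a description. Whether introns were counted is not given in the sources used here, and its part in these values was not tested.

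**Figure D2:**
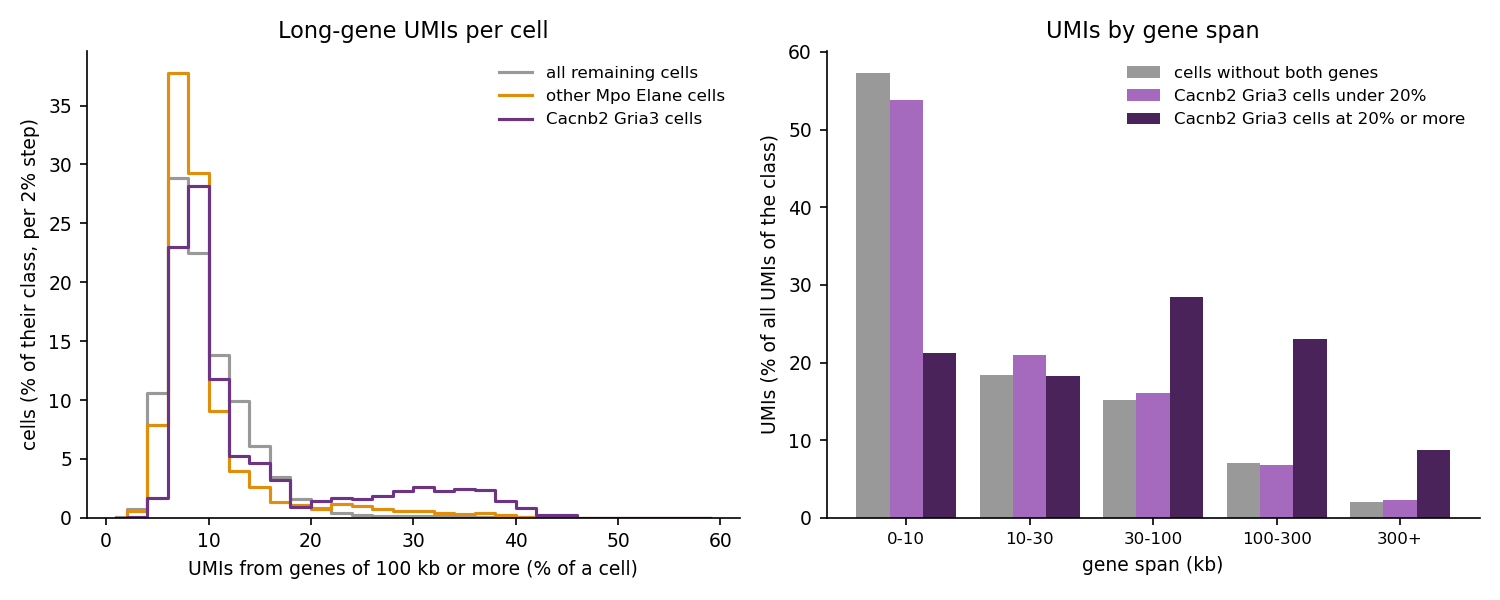
The left panel gives the share of cells in each 2% step of UMIs from genes of at least 100 kb, for Cacnb2 Gria3 cells, other Mpo Elane cells and all remaining cells, and the right panel gives the share of each class's UMIs by gene span in kb. The 271 cells at or above 20% took 8.69% of their UMIs from genes of at least 300 kb, while those below took 2.28%.

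Across 4387 genes, the ratio of the level in chosen cells to that in the other kept cells had a Spearman correlation with gene span of 0.0884, and of -0.17 when the chosen cells above the division were left out. Against the other Mpo Elane cells, the same correlation was 0.588. Genes of 1 library share its depth and chemistry, so these values describe the library and carry no p-value. Of these 3 values, the highest was thus the one against the other cells with Mpo and Elane.

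The sort was the comparison that the rule had not used. Cacnb2 Gria3 cells made up 19.1%, 2.47%, 3.77%, 17.7%, 33.9% and 19.2% of the kept cells of positive samples 1 to 6, and 1.39%, 1.11%, 1.72%, 1.07%, 1.24% and 2.27% of those of negative samples 1 to 6. Positive 5 was highest and positive 2 and 3 were far below the other positive samples, but no positive sample overlapped the negative ones. The 95% Wilson intervals, which cover counting error only, were 1.42 to 4.27% for positive 2 and 1.81 to 2.83% for negative 6, so the nearest pair of samples was not separated by counting error. The means were 16% ± 11.6 (SD, n = 6) and 1.47% ± 0.458 (SD, n = 6), a difference of 14.6 percentage points (SE 4.75) with a two-sided exact permutation p of 0.00216, the smallest that 924 assignments allow (adjusted p = 0.00541 over the 5 measures planned). With the injection number as a block, the exact sign-flip p was 0.0313, the smallest possible with 6 pairs.

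Depth moved with the sort as well. The median UMIs of the chosen cells were 13576 to 23282 in the positive samples and 6439 to 11261 in the negative ones, with means of 17007 ± 3407 and 8017 ± 1958 (SD, n = 6 each; exact permutation p = 0.00216, adjusted p = 0.00541). With every cell thinned to 4000 UMIs, the expected share of Cacnb2 Gria3 cells was 10.0% in the positive samples, from 1.06 to 15.9%, and 1.70% in the negative ones, from 1.15 to 2.72% (exact permutation p = 0.0195, n = 6 each). At 2000 UMIs it was 4.21% (0.337 to 7.39%) against 0.574% (0.430 to 0.817%; exact permutation p = 0.0152, n = 6 each). At both depths positive 2 lay below all negative samples. Cells too shallow were left out, 21.3% of positive and 28.9% of negative cells at 2000 UMIs, and 38.1% and 64.8% at 4000 UMIs. The mean share was thus higher in the positive sort at equal depth too, but not in every sample.

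**Figure D3:**
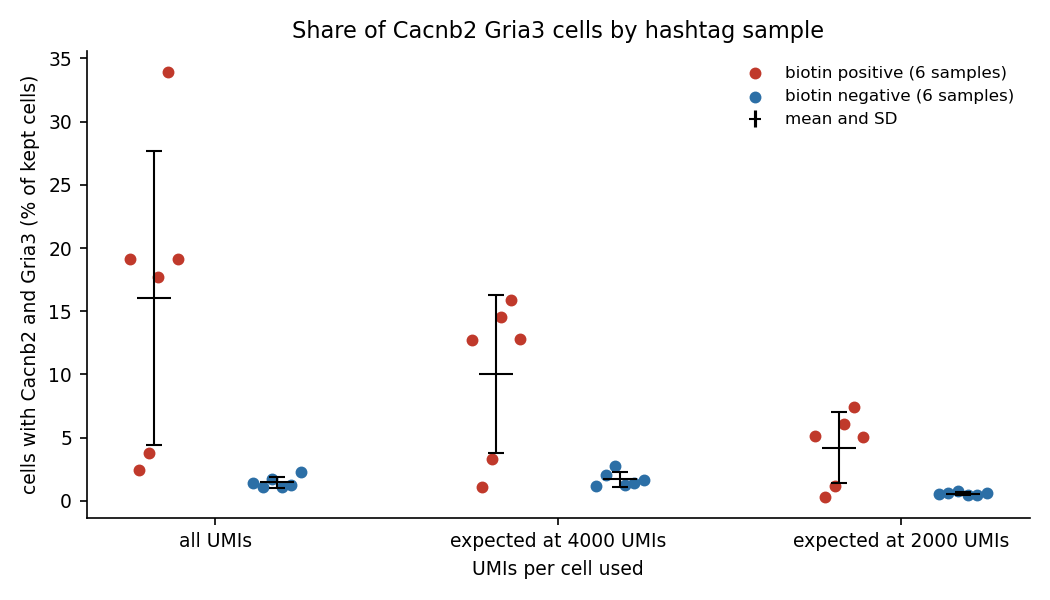
Points give the share of kept cells that carried both Cacnb2 and Gria3 in each of 6 biotin positive and 6 biotin negative hashtag samples, and bars the mean and SD, with all UMIs and after thinning to 4000 and 2000 UMIs per cell. The positive samples lay between 2.47 and 33.9% with all UMIs, above the negative samples at 1.07 to 2.27%, whereas 1 positive sample fell below them after thinning.

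The share of early granulocyte precursors moved with the sort too. Mpo Elane cells made up 6.60 to 63.3% of the positive samples and 2.41 to 5.81% of the negative ones, with means of 29.8% and 3.51% (exact permutation p = 0.00216, adjusted p = 0.00433 over the same 8 measures; n = 6 each). The share of these cells that carried both rule genes was higher in the positive sort as well. It was 34.1 to 58.9% in the positive samples and 9.46 to 22.4% in the negative ones, with means of 47.5% ± 10.9 and 16.7% ± 4.47 (SD, n = 6 each; exact permutation p = 0.00216, adjusted p = 0.00433), and the sorts did not overlap. Thinned to 4000 UMIs, this share was 18.6% against 7.51% (exact permutation p = 0.0130, n = 6 each), and at 2000 UMIs 9.62% against 3.06% (exact permutation p = 0.0108, n = 6 each). At equal depth the sorts overlapped, with 6.18 to 26.1% against 5.00 to 9.72% at 4000 UMIs and 2.43 to 15% against 2.07 to 4.15% at 2000.

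In these Mpo Elane cells, chosen without the rule genes, the levels of the 3 markers could be compared between the sorts. The class differed in make-up, with neutrophil genes at 212 to 335 per 10000 UMIs in positive and 485 to 966 in negative samples. Its granulocyte precursor genes were at 237 to 321 against 153 to 209, and its median depth was 10627 to 18922 against 6060 to 10322 UMIs. The part of make-up and depth in the marker levels was not tested. The unit here is summed UMIs of a gene per 10000 summed UMIs of the cells of a sample. Cacnb2 was at 1.26, 0.569, 1.04, 1.88, 1.27 and 1.67 in positive samples 1 to 6 and at 0.509, 0.494, 0.749, 0.322, 0.493 and 0.546 in negative samples 1 to 6. Only positive 2 lay within the range of the negative samples. The means were 1.28 ± 0.462 and 0.519 ± 0.137 (SD, n = 6 each; exact permutation p = 0.00433, adjusted p = 0.00577).

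Rad51b was at 2.21, 1.69, 2.05, 2.83, 2.09 and 2.26 in the positive samples and at 1.14, 1.41, 1.29, 0.927, 1.32 and 1.44 in the negative ones, with no overlap (means 2.19 ± 0.372 and 1.25 ± 0.193, SD, n = 6 each; exact permutation p = 0.00216, adjusted p = 0.00433). Gria3 was at 3.05, 2.13, 2.43, 3.96, 2.60 and 2.0 in the positive samples and at 2.64, 2.82, 2.02, 1.5, 2.24 and 2.75 in the negative ones, which overlapped (means 2.69 and 2.33; exact permutation p = 0.355, n = 6 each). A difference was thus found for Cacnb2 and none was detected for Gria3, and whether the changes of the genes differ from each other was not tested.

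**Figure D4:**
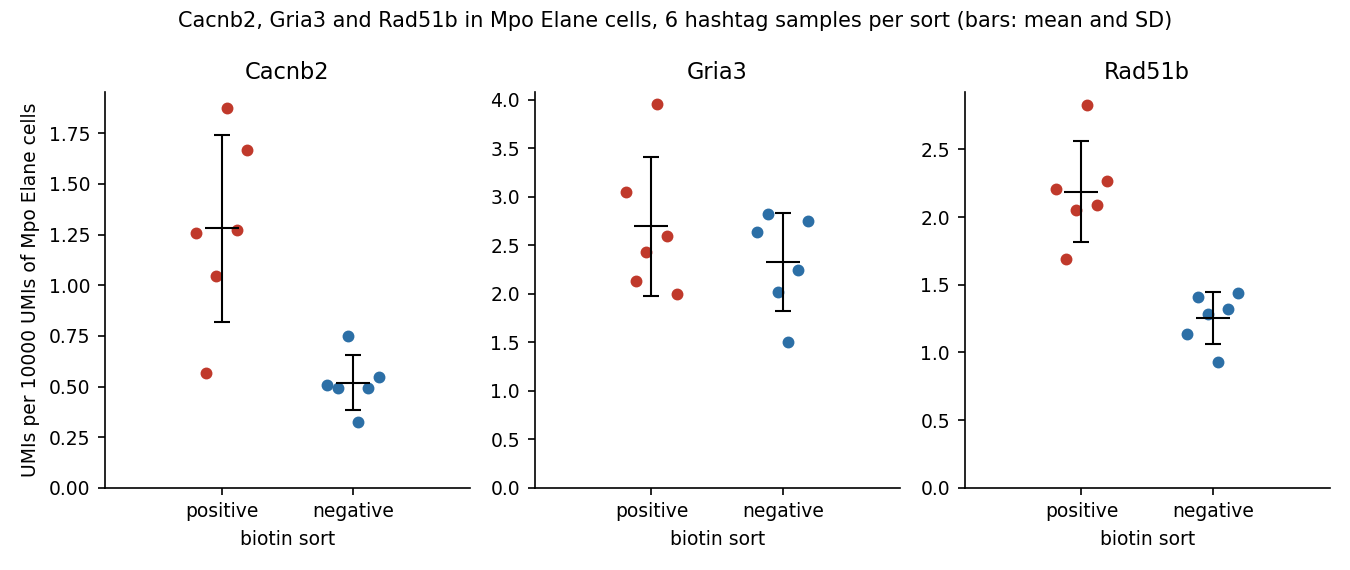
Points give the summed UMIs of Cacnb2, Gria3 and Rad51b per 10000 UMIs of the Mpo Elane cells of each hashtag sample, by biotin sort, with the mean and SD. The Rad51b values of the sorts did not overlap, 1 positive sample lay in the negative range for Cacnb2, and the Gria3 values overlapped.

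The long-gene share moved with these levels. In Mpo Elane cells, 9.41 to 11.9% of UMIs were of genes of at least 100 kb in the positive samples and 7.87 to 9.62% in the negative ones (means 10.8% ± 0.918 and 8.64% ± 0.580, SD, n = 6 each; exact permutation p = 0.00433, adjusted p = 0.00577), with an overlap of the lowest positive sample. The 3 markers were also tested in a fit across all genes, with and without the long-gene cells. Summed counts of Mpo Elane cells were tested with edgeR's quasi-likelihood test in 8691 genes. Of these, 1753 (20.2%) passed an adjusted p under 0.05: 822 rose (9.46%) and 931 fell (10.7%) in the positive sort. Cacnb2 rose by a log2 fold change of 1.25 (SE 0.21, adjusted p = 0.000497) and Rad51b by 0.71 (SE 0.11, adjusted p = 0.000211), while Gria3 was at 0.12 (adjusted p = 0.668). Without the cells at or above 20% long-gene UMIs, Cacnb2 was still called at 0.83 (edgeR adjusted p = 0.00486), Rad51b was not (0.14, adjusted p = 0.491), and Gria3 turned to -0.23 (adjusted p = 0.318). Among the 40 long genes listed, 13 rose and 1 fell of 23 tested in all Mpo Elane cells, with a median of 0.48 against 0.0050 over all genes. Without the cells at or above 20% long-gene UMIs, 6 rose and 1 fell of 23, with a median of 0.23 against 0.0065, in a fit that called 1385 of 8398 genes (16.5%), 632 higher (7.53%) and 753 lower (8.97%). RNAs that stay in the nucleus moved beside them: Malat1 rose by 0.55 (SE 0.10, edgeR adjusted p = 0.00133) and Kcnq1ot1 by 0.82 (SE 0.17, adjusted p = 0.00296) in all Mpo Elane cells, and by 0.42 and 0.50 without the long-gene cells, while Neat1 fell (-0.52 and -0.75). Their part in the long-gene change was not tested.

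Within the Cacnb2 Gria3 cells, the share at or above 20% long-gene UMIs was 8.33 to 36.1% in the positive samples and 8.33 to 16.7% in the negative ones, which overlapped (means 24.7% ± 9.65 and 12.9% ± 3.64, SD, n = 6 each; exact permutation p = 0.0216, adjusted p = 0.0247). With the injection number as a block, the exact sign-flip p was 0.0938, so this call rests on treating the samples as unpaired. The summed level of the 40 listed long genes was 0.734% of UMIs in the positive cells and 0.685% in the negative ones (exact permutation p = 0.472, n = 6 each).

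Genes of stage and of cycle phase differed between the sorts, which drew the chosen cells from different clusters. Mpo Elane cells were on average 93.3% of the chosen cells in the positive samples and 40.2% in the negative ones. In the summed counts of Cacnb2 Gria3 cells, 1292 of 7207 genes tested (17.9%) passed an adjusted p of 0.05 in edgeR's quasi-likelihood test, of which 630 (8.74%) rose and 662 (9.19%) fell in the positive sort. All 8 granulocyte precursor genes rose, with a median log2 fold change of 1.00 against -0.0024 over all genes tested. Within the named granulocyte precursor clusters, described below, 0 of these 8 genes passed (median 0.16). Mpo was at 68.0 to 103 per 10000 summed UMIs in the positive samples and at 24.0 to 47.4 in the negative ones, with no overlap, and rose by 1.20 (SE 0.15, edgeR adjusted p = 5.11e-05). Elane was at 77.1 to 93.4 and at 25.4 to 63.7, again with no overlap, and rose by 0.98 (SE 0.17, edgeR adjusted p = 0.000811). Prtn3 (1.03), Ms4a3 (1.10), Cebpe (1.07) and Ctsg (0.86) rose with them.

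Of 9 stem or progenitor genes tested, 8 fell, with a median of -2.12. They included Cd34, a surface sialomucin (-2.12, SE 0.32, edgeR adjusted p = 0.000185), the homeobox factor Meis1 (-2.80) and the zinc finger factor Mecom (-1.68). Kit was the exception at 0.21 (adjusted p = 0.447). Genes of other lineages fell too: 4 of 4 tested of the plasmacytoid dendritic cell list, among them Runx2 (-2.41) and Bst2 (-2.28), and 5 of 7 of the basophil or mast cell list. Siglech, a receptor of plasmacytoid dendritic cells, was at 0.712 to 2.49 in the negative samples and had no UMI in 4 of 6 positive ones. Ly6d, a surface protein of early lymphoid cells, was at 1.19 to 4.06 in the negative samples and had no UMI in the same 4 positive ones. Among the other genes furthest down were Cox6a2, Cd300c, Pacsin1, Flt3, Il7r, Prss34 and Cpa3, most of them near 0 in the positive samples.

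Phase genes moved in opposite directions. Of 20 genes of G2 and M phase, 19 rose (median 0.94), among them the cyclin Ccnb1 (1.94, SE 0.25, edgeR adjusted p = 5.33e-05), the anaphase activator Cdc20 (1.43) and the ubiquitin-conjugating enzyme Ube2c (1.71), and Top2a was at 0.44 (adjusted p = 0.0711). Of 19 S phase genes tested, 12 fell and 0 rose (median -0.60), among them the replication helicase subunit Mcm6 (-0.99), the sliding clamp Pcna (-0.80) and Uhrf1 (-0.94), a factor that maintains DNA methylation. Summed over the lists, G2 and M genes were at 25.9 to 32.9 per 10000 UMIs in the positive samples and 8.11 to 20.8 in the negative ones, and S phase genes at 11.7 to 18.0 and 20.0 to 27.3, without overlap in either. Both lists together were at 44.8 ± 3.89 and 38.0 ± 4.56 (SD, n = 6 each), a smaller difference with overlapping samples (exact permutation p = 0.0216, adjusted p = 0.0361). None of 14 MYC and nucleolar genes passed the edgeR test, with a median of 0.014.

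**Figure D5:**
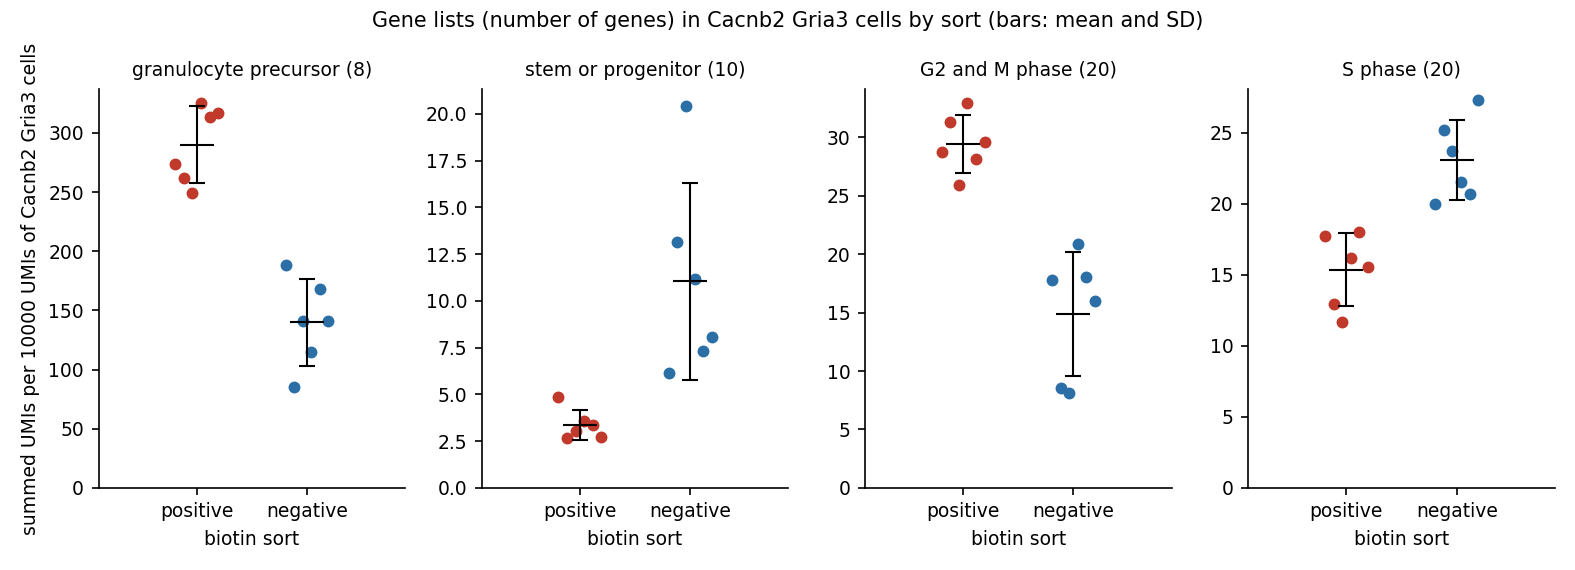
Points give the summed UMIs of 4 gene lists per 10000 UMIs of the Cacnb2 Gria3 cells of each hashtag sample, by biotin sort, with the mean and SD. Granulocyte precursor genes (249 to 325 against 85.3 to 189) and genes of G2 and M phase lay higher in every positive sample, and stem or progenitor genes (2.67 to 4.85 against 6.13 to 20.4) and S phase genes lower.

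Other lists held smaller numbers of tested genes or mixed directions. Of 5 monocyte genes tested, Ccr2, a chemokine receptor (-2.52), and Ms4a6c (-2.14) fell and Ly6c2 rose (0.48), and Flt3 and H2-Ab1 of the dendritic cell list fell. Of 10 pan-leukocyte genes, 2 rose and 5 fell, among the latter Ptprc (-0.62) and Cd53 (-1.07). Of 11 glycolysis genes tested, 6 rose and 0 fell, with a median of 0.41. Of 15 stress genes, Hspa1a (1.64) and Hspa1b (1.29) rose and 3 fell, among them Jun (-1.12). Esr1 rose by 0.77 (SE 0.17, edgeR adjusted p = 0.00399). Mitochondrial UMIs were 3.33% ± 0.387 and 2.80% ± 0.290 of the summed UMIs (SD, n = 6 each; exact permutation p = 0.0303, adjusted p = 0.0379), with overlap between the sorts, and this call was lost on leaving out any one of positive 1, 4 and 6 and negative 2 and 4 (differences of 0.456 to 0.495 percentage points). Cacnb2 and Gria3 are not compared between the sorts within these cells, since every cell had to carry a UMI of each and the negative cells were shallower. Rad51b rose by 0.48 (SE 0.13, edgeR adjusted p = 0.0190), but was at -0.29 in the cluster with the most chosen cells and at -0.44 in the named granulocyte precursor clusters, neither of which passed. The genes with the highest fold changes in the positive sort were Pf4, platelet factor 4 (5.48, SE 1.19, edgeR adjusted p = 0.00389), Thbs1 (2.24), Tshr, the thyrotropin receptor (2.18), the spindle gene Aspm (2.13), Mgl2 (2.08), Aff2 (2.03), Ccnb1, Cables1 (1.90), Mpp7 (1.80) and Ube2c. Within the cluster with the most chosen cells, Aff2 (-0.10) and Mpp7 (-0.23) turned and did not pass. Pf4 was at 4.24, 19.2, 4.85, 0.0349, 0.470 and 1.67 in positive samples 1 to 6 and at 0 to 0.461 in the negative ones. It was highest in positive 2, where the 12 macrophage genes summed to 23.6 per 10000 UMIs, and in positive 3, where they summed to 18.6, against 1.45 to 2.26 in the other positive samples. The part of other cells' RNA in the Pf4 level was not tested.

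Since the sorts drew their cells from different clusters, the test was repeated in the 755 chosen cells of the named granulocyte precursor clusters, a set added after the data were seen. Only 5 positive and 3 negative samples had enough of these cells, and 52 of 6435 genes tested (0.808%) passed in edgeR's test, 18 higher (0.28%) and 34 lower (0.528%), of which 37 had passed among all Cacnb2 Gria3 cells. Ccnb1, Cdc20, Cenpf, Ube2c and Birc5 still rose among the 20 genes of G2 and M phase. No granulocyte precursor gene passed, with a list median of 0.16 against 1.00 in all Cacnb2 Gria3 cells, Mpo at 0.19 (edgeR adjusted p = 0.468) and Elane at 0.12 (adjusted p = 0.722). No S phase gene passed either, but the median of that list was -0.51 against -0.60 in all Cacnb2 Gria3 cells, and that of G2 and M phase was 0.69 against 0.94. None of 3 stem or progenitor genes tested (median -0.16), 11 glycolysis genes (0.16) and 13 stress genes (-0.21) passed, and Esr1 was at 0.17 and did not pass. The neutrophil genes Retnlg, Mmp9, Ltf and Lcn2 fell. In all Mpo Elane cells, 19 of 20 genes of G2 and M phase rose, 17 of 20 S phase genes fell and 9 of 12 neutrophil genes fell, among them Ly6g (-3.07) and the granule protein gene Ltf (-2.92). There, 6 of 8 granulocyte precursor genes rose (list median 0.54), among them Mpo and Elane, by which the class was chosen. In those cells 4 of 8 stem or progenitor genes fell and Kit rose by 0.67 (list median -0.21), 1 of 12 glycolysis genes rose (0.076), Hspa1a (0.26) and Hspa1b (0.47) did not pass, and Esr1 rose by 1.15.

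Cells with both genes were rare in the intracardiac libraries. Of 55366 kept cells there, 84 carried Cacnb2 and Gria3, and 17 of the 32 samples held none. Bone held 65 of the 84. Of these, 43 of 43 cells of the positive samples and 10 of 22 of the negative ones were Mpo Elane cells. Among all kept bone cells, 555 of 4515 in the positive and 634 of 11482 in the negative samples were Mpo Elane cells. In the positive bone samples, cells with both genes had medians of 49090 to 53795 UMIs, against 5715 to 11314 in all kept cells. Both the rule and the limit of 5 UMIs are met more easily in deep cells. The biotin positive bone samples 1 to 4 had 0.199%, 0.391%, 4.52% and 0.809% of cells with both genes and the negative ones 0.169%, 0.156%, 0.245% and 0.200%. The positive mean of 1.48% ± 2.04 rested on sample 3, and positive 1 lay within the negative range (0.192% ± 0.0398, SD, n = 4 each; exact permutation p = 0.0857, where 0.0286 is the smallest possible). Outside bone, brain negative samples held 11 of 7459 cells, and the other 5 groups of brain, liver and lung held 0 to 3 cells each. Chemistry, Cell Ranger version and injection route all differed from the pooled library, so their parts in its higher share cannot be told apart.

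The same cell class carried the genes in the intracardiac bone samples, which the rule did not use. In summed UMIs per 10000, Gria3 was at 0.277 to 0.721 in Mpo Elane cells, with a mean of 0.400 ± 0.139 (SD, n = 8), against a mean of 0.0748 in the other cells of the same samples. It was higher in 8 of 8 samples (exact sign-flip permutation p = 0.00781, the smallest possible; adjusted p = 0.0104). Rad51b was at 0.0631 against 0.0232, also higher in 8 of 8 (exact permutation p = 0.00781). Cacnb2 was at 0.0213 ± 0.0162 against 0.00607 and higher in 7 of 8 (exact permutation p = 0.0391, n = 8). Long genes took a smaller share of the UMIs of Mpo Elane cells there, 3.08% ± 0.308 against 3.60% ± 0.672 (SD, n = 8), lower in 8 of 8 samples (exact permutation p = 0.00781). Positive and negative samples of a number may come from the same animal, which the labels do not say.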

How the data were processed

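The authors deposited filtered UMI counts per gene and barcode. Per the file headers they came from Cell Ranger 7.1.0 (pooled IIA bone, 5' chemistry with TotalSeqC hashtags) and 6.1.2 (32 intracardiac samples), and the submitters' processing notes name mm10, Cell Ranger and Seurat; intron counting is not given in the sources used here. Hashtag counts were matched to samples by the number in their names. The cells, genes and lists were chosen with earlier results of these data known. Gene spans came from GENCODE M21 for 32235 of 32285 genes. Cells were clustered with scanpy 1.11.5 (2000 variable genes, 30 components, resolution 1.0). Named genes were the 25 with the highest ratio of means (0.1 added to each) among genes seen in at least 20% of the chosen cells and, between the sorts, the 10 furthest in each direction past the threshold; some of these are not reported here. Thinning used the expected share at a fixed depth. Hashtag samples were compared by exact permutation tests and summed counts by edgeR 4.0.16 (TMM, quasi-likelihood test, Benjamini-Hochberg adjustment), checked on simulated counts, with DESeq2 1.42.0, other filters, the injection number as a block and leaving out each sample as alternatives. The pooled library held 153488427 UMIs.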

Additional observations from a re-analysis of the deposited data

Results flagged for a closer look

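Single samples stood apart from the other samples of their group, with a gap to the next value that was large for the whole range of the group, in 17 of 86 groups of values examined; chance flags about 1 in 20 such groups. Positive 2 had the lowest mitochondrial share in Cacnb2 Gria3 cells (2.58%, next 3.29%), and positive 3 the lowest share of Mpo Elane cells among them (77.8%, next 91.7%). In the intracardiac bone libraries, biotin positive 3 had 4.52% of cells with both genes (next 0.809%), and biotin positive 2 had the lowest Rad51b level in Mpo Elane cells (0.0382 per 10000 UMIs, next 0.0648).

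The remaining values are summed UMIs per 10000 in Cacnb2 Gria3 cells, each the highest of its group. In the positive sort, positive 2 had the highest Pf4 (19.2), Prss34 (2.56) and Cpa3 (0.462), from 12 chosen cells. Positive 3 had the highest Ly6d (0.0158), Siglech (0.0158) and Il7r (0.0948), and positive 5 was the only one with a UMI of Cd300c (0.00429) or Pacsin1 (0.00786). Positive 6 had the highest Cables1 (1.36). In the negative sort, the highest values were Pf4 in negative 3 (0.461), Aff2 in negative 1 (1.15), and Cables1 (0.475) and Cd300c (0.767) in negative 2.

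Barcodes that no hashtag claimed also carried the genes. Of 3824 such barcodes that passed the cell filter, 326 (8.53%) had both Cacnb2 and Gria3, against 5.72% of the kept cells with a hashtag. Those with both genes had a median of 16992 UMIs, against 4541 in all unassigned barcodes. They entered no comparison, since their sort is not known.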

How the results depend on the processing

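The 5 sample measures kept their direction under every alternative run. Leaving out 1 hashtag sample gave a difference in share of 10.977 to 17.267 percentage points, in median UMIs of 7735 to 9676, in long-gene share of 0.0187 to 0.0847, in cycle genes of 5.59 to 8.27 per 10000 and in mitochondrial share of 0.456 to 0.678 percentage points. The mitochondrial call was lost without positive 1, 4 or 6 or negative 2 or 4 (highest exact permutation p = 0.0606, n = 5 and 6). With at least 2 UMIs of each gene, the cycle difference was 5.98 (exact permutation p = 0.246) and the mitochondrial one 0.521 (exact permutation p = 0.0714). Genes called by edgeR between the sorts numbered 1009 to 1470 without 1 sample, 407 with at least 2 UMIs of each gene, 52 in the named granulocyte precursor clusters and 18 in the cluster with the most chosen cells; fewer cells and samples entered these last 3. Within that cluster, Aff2 (-0.10), Mpp7 (-0.23), Gria3 (0.25) and Rad51b (-0.29) changed sign, and within the precursor clusters Gria3 (0.058) and Rad51b (-0.44) did. In all Cacnb2 Gria3 cells, Cacnb2 changed sign with no filter on low counts (0.023) and without negative 3 (0.066; range without 1 sample -0.19 to 0.066), and in Mpo Elane cells Gria3 did without long-gene cells (-0.23) and without positive 4 (-0.011; range without 1 sample -0.011 to 0.19). None of these values passed the test, and those of Cacnb2 and Gria3 in cells chosen for carrying them are not read as a change. The Pf4 call was lost with at least 2 UMIs of each gene (3.66, edgeR adjusted p = 0.185). With the injection number as a replicate block, the differences in share (14.6), median UMIs (8990), cycle genes (6.82) and mitochondrial share (0.528) had an exact sign-flip p of 0.0313, the smallest possible with 6 pairs, long-gene share was at 0.0486 (exact p = 0.500), and edgeR called 1113 genes, 1067 of them as before. Same-numbered samples deviated together in only 2 of 6 pairs (correlations over 0.1). Such correlations, from few cells, cannot decide whether the numbers pair samples, so the main tests are to be read beside the blocked ones. With the block, the exact sign-flip p was 0.0313 for the share of Mpo Elane cells and for their share with both genes. It was also 0.0313 for their Cacnb2, Rad51b and long-gene levels, and 0.531 for their Gria3 level. Of the other values, 701 of those without 1 sample kept direction and call, 4 lost the call, 1 gained it and 2 changed sign; under other alternatives 231 kept both, 23 lost the call, 1 gained it and 8 changed sign. Cacnb2 and Gria3 were counted at a median of 2 and 3 UMIs per chosen cell, so shallow cells that express them are missed.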
